A study of Mus musculus with 4 samples.

Results

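The genes described here are 45 genes whose products license origins of DNA replication, open them and build the replication fork, out of 18193 genes measured. They were taken by symbol from the platform annotation, each read from the brightest of its probe sets (by mean over the 4 arrays), and all 45 were found. The samples were tumour epithelial cells of chemically induced squamous cell carcinomas of mouse skin, sorted by a green fluorescent reporter for Sox2, and each was hybridised to 1 whole-genome array. Sox2-GFP-positive cells (n = 2) were set against Sox2-GFP-negative cells (n = 2), and the series text names 2 carcinomas of 2 mice as their source. Cells of both groups were live, single, positive for the epithelial surface protein Epcam and negative for CD45 (leukocytes), CD31 (endothelium) and CD140a (mesenchyme). Both groups came from malignant tumours of mice that carry the reporter, so the comparison is within tumours and holds no normal skin. Strain and age of the mice and the construction of the reporter allele were not stated in the labels used here. Nothing says that cells of a group came from more than these 2 tumours, so p-values measure only the spread between these arrays.

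Replication begins at origins that the origin recognition complex (ORC) marks. In G1 phase Cdc6 and Cdt1 load rings of Mcm2 to Mcm7 there, which is called licensing. On entry into S phase the kinase of Cdc7 and Dbf4, with Mcm10, Cdc45 and the GINS complex, turns the rings into moving helicases, and polymerases, primase, the sliding clamp and its loader follow. Many of these genes are switched on in late G1 by transcription factors of the E2F family, and in stratified epithelium such as epidermis they are known as genes of the dividing basal layer.

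Because many members are textbook E2F targets, the windows around their starts are shown first. Windows of 250 bases before to 50 bases after a RefSeq start (GRCm38.p6) were available for 38 of the 45 members. Where a gene had several such windows, only the first listed was counted. They were searched on both strands for 4 forms of the core E2F site: the form TTCCCGC, the form TTCGCGC, the form TTGCCGC and the form TTGGCGC. The CCAAT box, the GC box (searched as GGGCGG) and the cell cycle homology region of mitotic genes (CHR, searched as TTTGAA) were searched in the same way. Forms of the E2F site can overlap each other on opposite strands. A form was present in 22 of 38 member windows (57.9%), against 14.2% of the 14452 windows of all measured genes and 9.69% of 27025 windows of all genes in the table. The windows below are those of Mcm6, Mcm7 and Pola1, with 3 to 5 forms each, of Cdc6 and Rpa3 with 1, of Orc3, which has 1 form and the most negative difference of all members, and of Mcm2, which has none of the forms and the largest difference of the helicase ring. Capitals mark the forms and their reverse complements.
Mcm6: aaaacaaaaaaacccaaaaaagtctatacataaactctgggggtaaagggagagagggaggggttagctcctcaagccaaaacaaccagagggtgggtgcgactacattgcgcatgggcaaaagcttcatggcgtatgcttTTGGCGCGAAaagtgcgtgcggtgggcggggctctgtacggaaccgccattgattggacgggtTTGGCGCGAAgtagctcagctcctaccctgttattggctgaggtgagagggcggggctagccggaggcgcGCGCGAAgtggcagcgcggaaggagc
Mcm7: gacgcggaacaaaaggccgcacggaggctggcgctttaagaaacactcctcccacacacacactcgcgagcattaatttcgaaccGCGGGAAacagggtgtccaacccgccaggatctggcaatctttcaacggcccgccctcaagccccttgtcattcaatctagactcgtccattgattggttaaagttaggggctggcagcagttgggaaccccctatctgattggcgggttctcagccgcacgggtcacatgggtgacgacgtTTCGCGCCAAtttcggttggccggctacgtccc
Pola1: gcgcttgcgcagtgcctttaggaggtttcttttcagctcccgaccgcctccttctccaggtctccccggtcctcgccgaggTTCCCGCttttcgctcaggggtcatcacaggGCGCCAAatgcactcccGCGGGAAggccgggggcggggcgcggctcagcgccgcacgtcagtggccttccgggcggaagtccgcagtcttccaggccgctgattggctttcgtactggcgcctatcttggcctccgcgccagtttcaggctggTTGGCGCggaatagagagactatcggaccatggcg
Cdc6: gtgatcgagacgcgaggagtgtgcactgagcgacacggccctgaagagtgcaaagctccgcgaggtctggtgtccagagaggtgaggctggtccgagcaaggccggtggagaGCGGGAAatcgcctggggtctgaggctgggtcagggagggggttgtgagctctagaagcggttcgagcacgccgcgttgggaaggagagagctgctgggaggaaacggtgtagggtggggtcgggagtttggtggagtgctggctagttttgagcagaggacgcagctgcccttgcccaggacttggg
Rpa3: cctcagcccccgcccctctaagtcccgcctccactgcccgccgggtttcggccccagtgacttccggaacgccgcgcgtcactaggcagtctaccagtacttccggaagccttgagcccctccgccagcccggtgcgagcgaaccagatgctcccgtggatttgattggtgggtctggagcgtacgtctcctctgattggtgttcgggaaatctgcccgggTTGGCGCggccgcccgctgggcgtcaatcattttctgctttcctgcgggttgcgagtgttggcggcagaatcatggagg
Orc3: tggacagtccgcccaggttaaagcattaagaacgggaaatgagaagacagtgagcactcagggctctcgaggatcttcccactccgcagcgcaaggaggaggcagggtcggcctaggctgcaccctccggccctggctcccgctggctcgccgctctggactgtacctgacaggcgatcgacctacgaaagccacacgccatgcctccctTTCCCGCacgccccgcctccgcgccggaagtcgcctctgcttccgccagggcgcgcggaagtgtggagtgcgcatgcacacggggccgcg
Mcm2: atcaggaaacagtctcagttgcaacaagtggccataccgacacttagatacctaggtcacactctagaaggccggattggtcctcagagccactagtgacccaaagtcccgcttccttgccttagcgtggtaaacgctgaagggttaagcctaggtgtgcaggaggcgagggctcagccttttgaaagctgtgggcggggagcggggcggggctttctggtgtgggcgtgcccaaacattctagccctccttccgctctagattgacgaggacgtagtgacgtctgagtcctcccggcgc
These windows lie on the minus strand at chr1:128359656-128359955 (Mcm6), chr5:138171834-138172133 (Mcm7), chrX:93632106-93632405 (Pola1), chr6:8259092-8259391 (Rpa3), chr4:34614893-34615192 (Orc3) and chr6:88898731-88899030 (Mcm2), and on the plus strand at chr11:98907901-98908200 (Cdc6), each spanning a RefSeq transcript start of its gene.

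**Figure D1:**
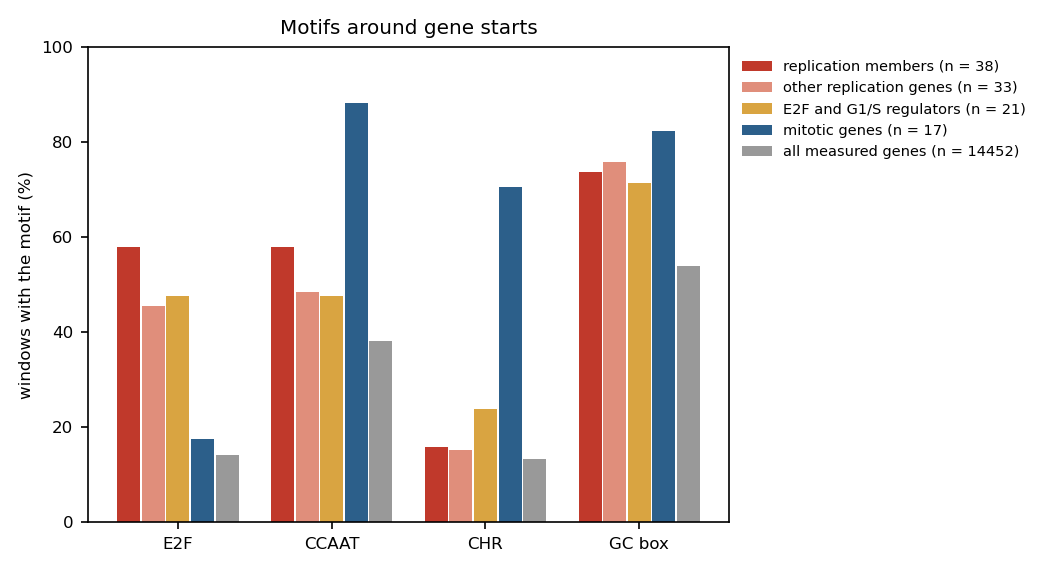
Share of windows around gene starts (percent, bars from 0) that hold each motif on either strand, for the replication genes (n = 38), 3 related gene lists and all measured genes (n = 14452). E2F forms stand in 57.9% of replication windows and 17.6% of mitotic windows, and TTTGAA (CHR) in 15.8% and 70.6%.

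The replication windows differed in make-up from those of mitotic genes. TTTGAA stood in 6 of 38 replication windows (15.8%), 4 of them among the 5 windows of origin firing factors, and in 12 of 17 windows of the mitotic list (70.6%), beside 13.3% of all measured genes. The E2F forms stood in 3 of those 17 (17.6%). A CCAAT box was found in 57.9% of replication windows and 38.2% of all measured windows, and a GC box in 73.7% and 54%. Replication windows had a median of 61.8% G and C and all measured windows 58.7%. The median number of CG pairs, which every E2F form holds, was 24 and 17. Among all measured windows with 53.2% to 65.7% G and C, the interquartile range of the members, 15.7% held an E2F form. Of the 19 members in that range, 13 did. The number of CG pairs was not matched in that comparison. Within the members the letters did not sort the expression differences. The 22 with a form in the counted window had a median log2 difference of 0.48 and the 16 without one of 0.57. Lig1, Fen1, Orc2, Orc4 and Pold2, among those without one, have further windows that were not counted. A match is only a run of letters, and binding was not measured.

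Across the 45 members, values in Sox2-GFP-positive cells lay mostly above those in negative cells, by a modest amount that varied between genes. The median log2 difference (positive minus negative) was 0.53, with an interquartile range of 0.27 to 0.73, beside a median of 0.14 over all 18193 genes. Differences ran from -0.32 to 1.10 on the log2 scale, and 42 of the 45 were above 0, where 66% of all genes were. In 36 members both positive arrays read above both negative arrays, a pattern seen in 35.5% of all genes, and in 1 member both read below, seen in 14% of all genes. The gap between the nearest arrays was under 0.1 log2 units in 10 of those 36. Over all genes it was so in 2002 of the 6460 that lay above. A gap of at least 0.5 was found in 13 members and in 5.23% of all genes. No member had a gap of 1 log2 unit or more, which 0.665% of all genes had above and 1.36% below.

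Without a block, no member passed limma at an adjusted p of 0.05, with 0% of all genes called higher and 0% lower. In that fit adjusted p ran from 0.192 for Gins1 to 0.892 for Orc1. With the replicate number as a block, the lowest limma adjusted p was 0.026 over all genes and 0.144 over the members. No label ties that number to a tumour. At an unadjusted p under 0.05 without the block, 19 members were higher and 0 lower, beside 9.75% and 5.22% of all genes. That count was 6 without negative replicate 1 (5.14% of all genes), 9 without negative replicate 2 (4.24%), 11 without positive replicate 1 (8.9%) and 17 without positive replicate 2 (10.8%). Scaling the arrays to their spike-in transcripts ended this result, with 42 members and 12559 of all genes higher by limma at an adjusted p under 0.05. That scaling moved the median of all genes to 0.93 and of the members to 1.32, and since it adds the same amount to every gene the distance of 0.39 between these medians is fixed. Which scaling fits the RNA content of the cells was not tested. The members were mostly bright: 20 had a mean between the median and the upper quartile of gene levels, and 21 a mean above it. Of these, 16 of 20 and 18 of 21 had both positive arrays above, where 38.2% and 41.4% of all genes of the same brightness did.

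**Figure D2:**
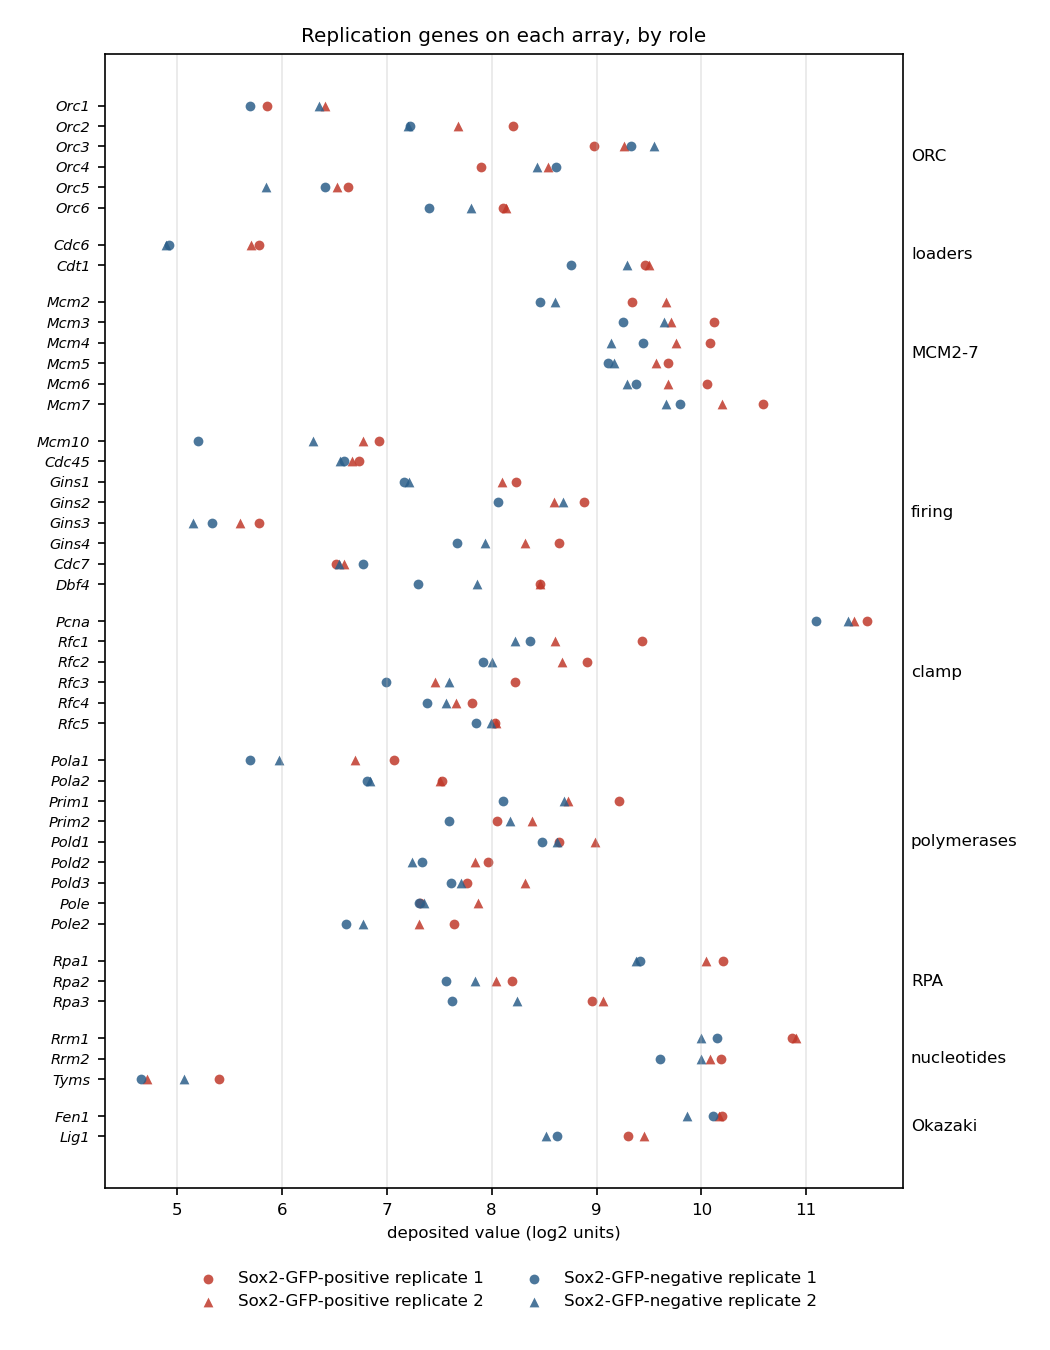
Deposited log2 value of each of the 45 genes on each of the 4 arrays, grouped by role, with positive arrays in red, negative arrays in blue, replicate 1 as circles and replicate 2 as triangles. In 36 genes both red points lie right of both blue points, and Orc3 is the only gene with both on the left.

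Markers of fibroblasts and of suprabasal keratinocytes mostly read lower in positive arrays. Most endothelial and leukocyte markers overlapped, as did 9180 of all 18193 genes. The mean level of the 45 members relative to each gene's 4-array mean was 0.30 and 0.21 in positive arrays, against -0.34 and -0.17 in negative arrays. For 12 fibroblast markers it was -0.13 and -2.29 in positive arrays, against 1.91 and 0.51 in negative arrays, and 11 of the 12 had both positive arrays below. For 12 suprabasal keratinocyte markers the same mean was -0.28 and -1.04 against 0.66 and 0.66. Of these, 7 of 12 lay below and 2 above, beside 14% and 35.5% of all genes. The 10 endothelial markers read -0.07 and -0.85 against 1.17 and -0.25, and the 12 leukocyte markers 0.01 and -0.65 against 0.82 and -0.18. In these lists 2 of 10 and 3 of 12 lay below, beside 14% of all genes, and 8 overlapped in each. Pdgfra, which encodes CD140a, read 5.93 and 4.85 in positive arrays, against 7.83 and 5.96 in negative arrays. Pecam1 (CD31) read 5.57 and 6.41 against 8.44 and 6.27, and Ptprc (CD45) 4.98 and 4.34 against 4.97 and 4.18, below the array medians of 5.49 to 5.60. The part of these markers in the replication differences was not tested, and in sorted bulk RNA fewer cells of a type cannot be told apart from less RNA per cell. Most of the 10 epithelial markers were bright (median level at the 98.1 percentile of all genes, with Krt18 at 60.4 and Krt8 at 37.3). They went both ways, with 5 above and 3 below, beside 35.5% and 14% of all genes, and a median difference of 0.04. The integrin Itgb4 read 11.90 and 12.37 in positive arrays, against 10.95 and 10.88 in negative arrays, and Krt18 8.01 and 7.78 against 5.48 and 7.41. The adhesion protein Cdh1 read 9.64 and 10.36 against 10.74 and 11.18, and Epcam 10.75 and 11.79 against 11.24 and 11.80. Sox2 itself read 3.50 and 3.27 in positive arrays and 3.14 and 3.43 in negative arrays, near the 5th percentile of the arrays (3.34 to 3.37), so its transcript does not check the sort.

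The origin recognition complex was the most divided role, with 3 of 6 members above, 1 below and 2 overlapping, and a median log2 difference of 0.28. Over all genes 35.5% lay above and 14% below, so this split was not far from that of all genes. Orc2, a core subunit, read 8.20 and 7.68 in positive arrays and 7.22 and 7.20 in negative arrays (difference 0.73 ± 0.25 SE, limma adjusted p = 0.296). Orc6, the smallest and most loosely held subunit, read 8.11 and 8.14 against 7.40 and 7.80. Orc5 read 6.63 and 6.52 in positive and 6.41 and 5.85 in negative arrays. These 3 had their positive arrays on top, by gaps of 0.11 to 0.46. Orc3, the core subunit that pairs with Orc2, ran the other way, with 8.98 and 9.26 in positive arrays and 9.33 and 9.55 in negative arrays (difference -0.32 ± 0.21 SE, adjusted p = 0.525), although scaling to the spike-in transcripts, which raises all genes alike, turned it to 0.47, still below the median of all genes under that scaling (0.93). Orc4, an ATPase subunit, read 7.90 and 8.54 against 8.62 and 8.43, with the groups overlapping, and it too turned positive, to 0.48, under that scaling. Orc1, the ATPase subunit whose gene is an E2F target in human cells, read 5.85 and 6.41 in positive and 5.69 and 6.35 in negative arrays, so replicates within a group differed more than the groups did. The 95% interval of its difference, -0.74 to 0.96, includes 0.

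Both loaders read higher in positive cells. Cdc6, the ATPase that recruits the helicase to ORC, read 5.78 and 5.70 in positive arrays and 4.92 and 4.90 in negative arrays, with replicates almost on top of each other (difference 0.83 ± 0.18 SE, 1.78-fold, limma adjusted p = 0.21). Its only probe set was dim, with a mean of 5.33, below the median of every array (5.49 to 5.60). Cdt1, the partner that carries the ring to the origin, read 9.46 and 9.50 against 8.75 and 9.29. Its groups did not overlap, but negative replicate 2 came within 0.17 log2 units of the positive arrays. The next-brightest Cdt1 probe set showed a wider difference, 7.77 and 7.98 against 6.70 and 7.29.

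The helicase ring was the most uniform role. By their brightest probe sets, all 6 of Mcm2 to Mcm7 had both positive arrays above both negative arrays, where 35.5% of all genes did. Their log2 differences ran from 0.47 to 0.97. The standard deviation over the 6 genes was 0.19, where it was 0.34 over all 45 members. Mcm2 stood farthest apart, at 9.34 and 9.66 in positive arrays and 8.46 and 8.60 in negative arrays (difference 0.97 ± 0.21 SE, 1.96-fold, limma adjusted p = 0.21). Mcm7 read 10.59 and 10.20 against 9.80 and 9.67. Mcm4 read 10.08 and 9.76 in positive and 9.45 and 9.13 in negative arrays. Both were 1.55-fold to 1.58-fold higher, and both had unadjusted p under 0.05 (0.0423 for Mcm4). Mcm5 and Mcm6 showed the same pattern with smaller differences. Mcm5 read 9.68 and 9.56 against 9.11 and 9.16. Mcm6 read 10.05 and 9.68 in positive and 9.37 and 9.29 in negative arrays. Mcm3 was nearest to overlap, at 10.12 and 9.71 against 9.25 and 9.64, a gap of 0.07. Mcm2 has 1 other probe set, which read 9.08 and 9.33 in positive and 8.05 and 8.51 in negative arrays and so gave nearly the same difference (0.93).

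Among the factors that fire origins, 6 of 8 were above, 0 below and 2 overlapped, beside 35.5% of all genes above and 14% below. Gins1, a subunit of the GINS complex that joins the helicase, had the smallest p of all 45 members: 8.23 and 8.10 in positive arrays, 7.16 and 7.21 in negative arrays (difference 0.98 ± 0.19 SE, 1.97-fold, 95% interval 0.50 to 1.46, limma adjusted p = 0.192). Its partners were less far apart, with Gins4 at 8.64 and 8.32 against 7.67 and 7.94. Gins3 read 5.78 and 5.60 in positive and 5.33 and 5.16 in negative arrays. Its probe sets were dim, with means of 5.47 and 5.24, below the median of every array (5.49 to 5.60). Gins2 overlapped, since negative replicate 2 (8.68) read above positive replicate 2 (8.59), while the other arrays read 8.88 in positive replicate 1 and 8.06 in negative replicate 1.

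Mcm10, which helps to activate the helicase, had the largest difference of all members but a wide spread. It read 6.92 and 6.78 in positive arrays and 5.20 and 6.30 in negative arrays (difference 1.10 ± 0.40 SE, adjusted p = 0.312), with negative replicate 1 setting much of it. The 2 dimmer Mcm10 probe sets also had both positive arrays above both negative arrays, with differences of 0.71 and 0.82. The kinase that triggers firing split by subunit. Dbf4, the activating subunit, read 8.46 and 8.47 against 7.29 and 7.86 (difference 0.89 ± 0.26 SE). Cdc7, the catalytic subunit, read 6.52 and 6.59 in positive and 6.78 and 6.54 in negative arrays (difference -0.11 ± 0.20 SE, 0.69 under the spike-in scaling that raises all genes alike). Whether the 2 subunits differ from each other was not tested. Cdc45, the third part of the active helicase, was barely separated at 6.73 and 6.67 against 6.59 and 6.56.

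**Figure D3:**
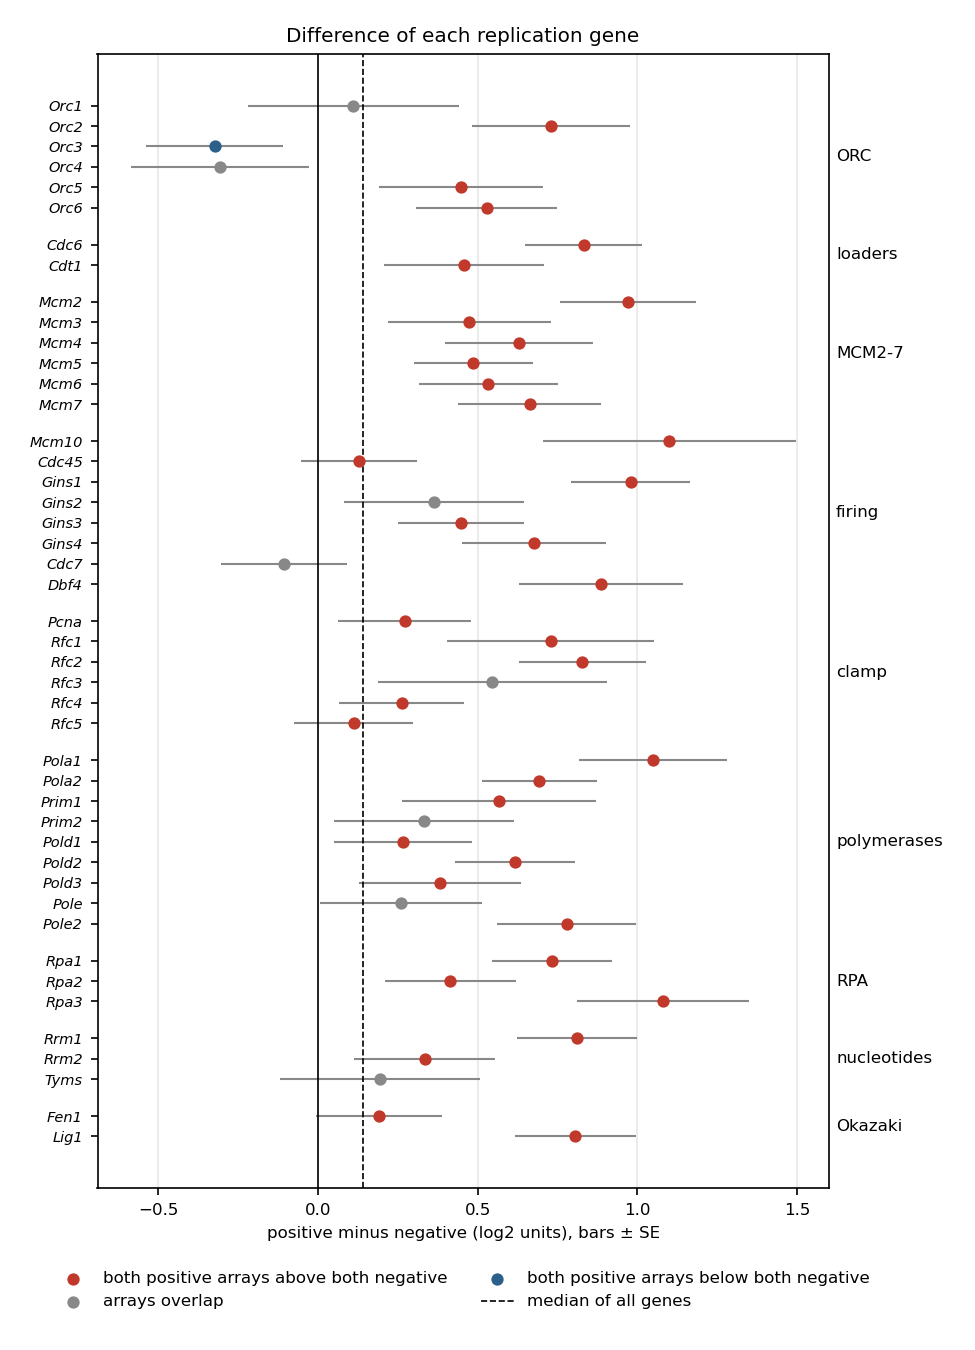
Log2 difference, positive minus negative, of each of the 45 genes by role, with bars of 1 SE from limma (n = 2 per group), a solid line at 0 and a dashed line at the median of all genes, 0.14. The MCM2-7 points sit together between 0.47 and 0.97, while ORC spreads from -0.32 to 0.73.

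The sliding clamp and its loader gave 5 of 6 genes above (35.5% of all genes were) and 1 overlapping, with small gaps. Rfc2, a small subunit of the loader, stood out at 8.91 and 8.67 in positive arrays and 7.92 and 8.01 in negative arrays (difference 0.83 ± 0.20 SE, 1.77-fold, limma adjusted p = 0.222). Rfc1, the large subunit found only in the loader of the replication clamp, read 9.44 and 8.61 against 8.36 and 8.22. Rfc3 overlapped, at 8.22 and 7.46 in positive and 6.99 and 7.59 in negative arrays. Rfc4 read 7.82 and 7.66 against 7.39 and 7.56, and Rfc5, another small subunit, 8.03 and 8.04 against 7.85 and 7.99, so each was separated by under 0.1 log2 units. Pcna, the clamp itself and a common histological marker of dividing cells, read 11.58 and 11.45 in positive and 11.09 and 11.39 in negative arrays. Its difference was 0.27 ± 0.21 SE, and the 95% interval, -0.27 to 0.81, includes 0.

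All 9 polymerase and primase genes had a difference above 0, and 7 of them had both positive arrays on top. Over all genes these shares were 66% and 35.5%. Pola1, the catalytic subunit of polymerase alpha, which starts each new strand, read 7.06 and 6.70 in positive arrays and 5.70 and 5.97 in negative arrays (difference 1.05 ± 0.23 SE, 2.07-fold, limma adjusted p = 0.21). Pola2, its accessory subunit, read 7.53 and 7.51 against 6.81 and 6.84, with replicates almost equal. Pole2, an accessory subunit of the leading-strand polymerase epsilon, read 7.64 and 7.30 in positive and 6.61 and 6.78 in negative arrays. Pold2, the accessory subunit of the lagging-strand polymerase delta, read 7.96 and 7.84 against 7.33 and 7.24. Those 4 had unadjusted p from 0.00649 to 0.0222.

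The catalytic subunits of polymerases epsilon and delta had smaller differences, 0.26 for Pole and 0.27 for Pold1. Pole itself read 7.31 and 7.87 in positive and 7.31 and 7.35 in negative arrays, so only positive replicate 2 stood out. Pold1 read 8.65 and 8.99 against 8.48 and 8.62. Pold3, a further subunit of polymerase delta, read 7.77 and 8.32 in positive and 7.61 and 7.70 in negative arrays. Prim1, the catalytic primase subunit, read 9.21 and 8.72 against 8.11 and 8.69, with negative replicate 2 almost level with positive replicate 2. Prim2, the large primase subunit, overlapped at 8.05 and 8.38 in positive and 7.59 and 8.18 in negative arrays, but its next-brightest probe set read 7.93 and 8.09 against 6.69 and 6.86. No test between subunits was made.

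All 3 subunits of RPA, which coats the single strands that the helicase exposes, were above by their brightest probe sets (35.5% of all genes were). Rpa3, the smallest subunit, read 8.95 and 9.06 in positive arrays and 7.62 and 8.24 in negative arrays (difference 1.08 ± 0.27 SE, 2.11-fold, limma adjusted p = 0.233). Rpa1, the large subunit that holds the DNA, read 10.21 and 10.05 against 9.41 and 9.38. Rpa2, which is phosphorylated under replication stress, read 8.19 and 8.04 in positive and 7.57 and 7.84 in negative arrays. Its other probe set overlapped, at 7.49 and 6.81 in positive and 6.61 and 7.60 in negative arrays, with a difference of 0.046. The median over the 3 was 0.73.

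Among the genes of nucleotide supply 2 of 3 were above, and both genes of strand joining were, beside 35.5% of all genes. Rrm1, the large subunit of ribonucleotide reductase, read 10.87 and 10.90 in positive arrays and 10.15 and 9.99 in negative arrays (difference 0.81 ± 0.19 SE, 1.76-fold, limma adjusted p = 0.217). Rrm2, the small subunit that is made in S phase, read 10.19 and 10.08 against 9.61 and 9.99. Tyms, thymidylate synthase, was dim and overlapped at 5.40 and 4.71 in positive and 4.66 and 5.07 in negative arrays. All 4 of its probe sets had means between 3.54 and 4.96, below the median of every array, so its level is poorly measured. Lig1, the ligase that seals Okazaki fragments, read 9.30 and 9.46 against 8.62 and 8.52 (difference 0.81 ± 0.19 SE, adjusted p = 0.218). Fen1, which trims the flaps before sealing, read 10.20 and 10.17 in positive and 10.11 and 9.87 in negative arrays.

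For several members the answer depended on the probe set. The 45 members had 102 probe sets with a single symbol, and 35 members had more than 1. Prim2 gave 0.33 by its brightest set and 1.24 by the next, Fen1 0.19 and 0.87, Cdc45 0.13 and 0.72, Rfc4 0.26 and 0.79, Gins2 0.36 and 0.80, and Rrm2 0.33 and 0.75. Rfc3 gave 0.55 and 0.90. In Fen1 the dimmer set read 6.11 and 6.82 in positive arrays and 5.51 and 5.69 in negative arrays. In Cdc45 it read 6.55 and 6.48 against 5.64 and 5.94. The opposite occurred in Orc2 (0.73 and 0.10), Rpa2 and Pola2 (0.69 and -0.14), and in Pola1, Dbf4 and Pole2, whose next sets lay at mean levels of 3.87 to 4.25, near the lower quartile of the arrays (4.19 to 4.25), and gave -0.54, -0.14 and -0.11.

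Over the 29 members whose next-brightest set lay above the median probe set of the arrays (5.53), the median difference was 0.47 by the brightest and 0.58 by the next, and 14 gave a larger difference by the next set. Both positive arrays were on top in 22 by the brightest and in 20 by the next. Over the 5080 genes that met the same condition, the medians were 0.12 and 0.15, and 1823 and 1866 had both positive arrays on top. Of the 45 sets used, 7 carry the suffix for probes that may also match other transcripts (x) and 3 the suffix for probes shared by a family of transcripts (s). Mcm3 to Mcm7 were all read from such sets. The next-brightest sets of Mcm4, Mcm5 and Mcm6, which carry neither suffix, gave 0.57, 0.44 and 0.84. The next-brightest Mcm7 set, which carries the suffix x, gave 0.38.

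**Figure D4:**
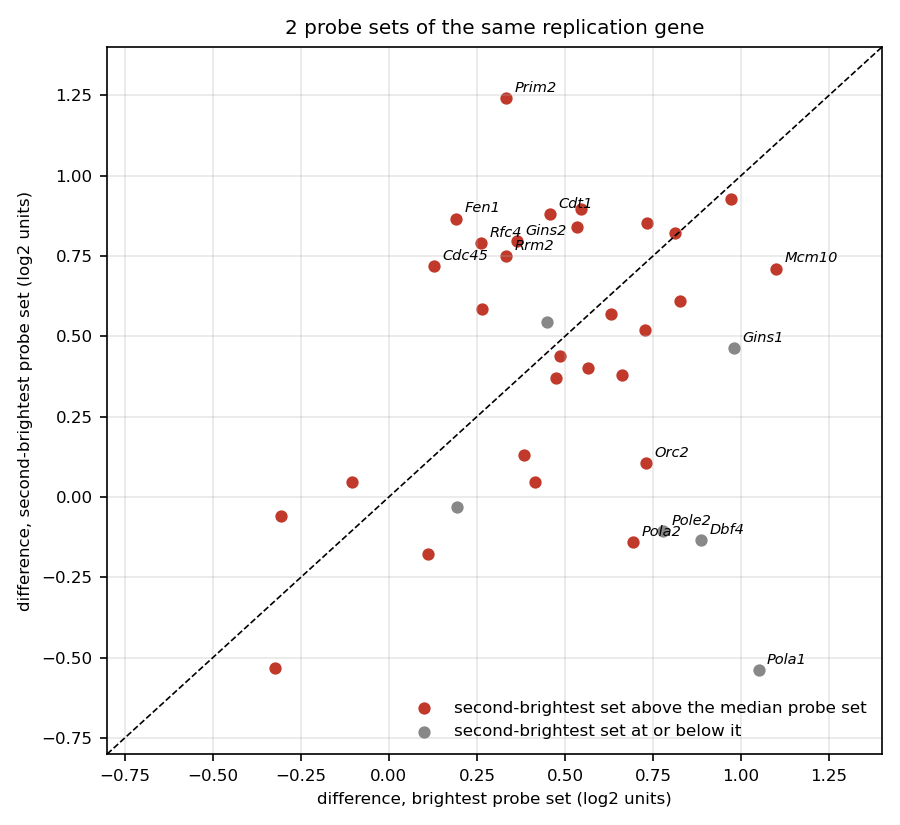
Log2 difference of the 35 genes with several probe sets, by the brightest set (horizontal) and the next (vertical), with equality dashed and red points where the next set lies above the median probe set of the arrays. Prim2, Fen1 and Cdc45 lie well above the line, and Pola1, Dbf4, Pole2 and Pola2 well below it.

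Other genes of the same process, taken from lists of replication, G1/S and mitotic genes, showed a like pattern. Of 36 measured genes of replication outside the 45, 24 had both positive arrays above and 1 both below. The shares over all genes were 35.5% and 14%. The median log2 difference of the 36 was 0.41. At an unadjusted p under 0.05, 10 were higher and 1 lower, beside 9.75% and 5.22% of all genes (limma, lowest adjusted p = 0.184). Tk1, the salvage kinase for thymidine, read 9.07 and 8.87 in positive arrays and 7.93 and 7.72 in negative arrays. Dtymk, which makes the diphosphate of thymidine, read 9.39 and 9.27 against 8.48 and 7.94, and Hells, a chromatin remodeller of dividing cells, 6.62 and 6.85 against 5.83 and 5.95. Samhd1 was the lower one, at 8.85 and 8.65 in positive and 9.80 and 10.15 in negative arrays, and its enzyme destroys the deoxynucleotides that replication consumes.

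Of 28 E2F and G1/S regulators, 18 were above and 1 below, beside 35.5% and 14% of all genes, with a median of 0.43. At an unadjusted limma p under 0.05, 11 were higher, beside 9.75% of all genes. E2f1, an activating E2F, read 7.67 and 7.50 in positive arrays and 6.67 and 6.59 in negative arrays. Cyclin D1 (Ccnd1), which starts the release of E2F from the retinoblastoma proteins, read 11.30 and 11.77 against 10.45 and 10.13. E2f7, a repressor of E2F targets, read 7.20 and 7.92 in positive and 6.35 and 6.15 in negative arrays, and Rbl1, a retinoblastoma relative, 7.15 and 7.54 against 6.24 and 6.41. E2F genes did not all go one way. E2f2 was the 1 below, at 5.70 and 5.70 in positive and 6.62 and 5.74 in negative arrays. E2f3 overlapped (log2 difference -0.22), while E2f8 was above (0.72). The lowest adjusted p of the list was 0.203 in limma.

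The mitotic list had the highest median of these lists, 0.70 over 19 measured genes, with 18 above and 0 below, beside 35.5% and 14% of all genes. At an unadjusted p under 0.05, 12 were higher, beside 9.75% of all genes (limma, lowest adjusted p = 0.18). Cdk1, the kinase that drives entry into mitosis, read 9.73 and 9.56 against 8.28 and 8.45, and the spindle kinase Aurka 8.86 and 8.41 against 7.26 and 7.27. Aurkb, a kinase of chromosome segregation, read 7.37 and 7.32 in positive arrays and 6.31 and 6.11 in negative arrays, and the checkpoint kinase Bub1 7.04 and 7.28 against 6.20 and 6.27. Mki67, the usual proliferation marker, was only narrowly apart, at 11.31 and 11.65 against 11.06 and 11.26 and an adjusted p of 0.534. Genes of quiescence and CDK inhibition (14 measured) had a median of 0.13, close to that of all genes. Of these, 3 were above (21.4%, where 35.5% of all genes were) and 1 below. Cdkn2b, an inhibitor of the cyclin D kinases, read 9.39 and 9.66 in positive and 8.77 and 8.74 in negative arrays.

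**Figure D5:**
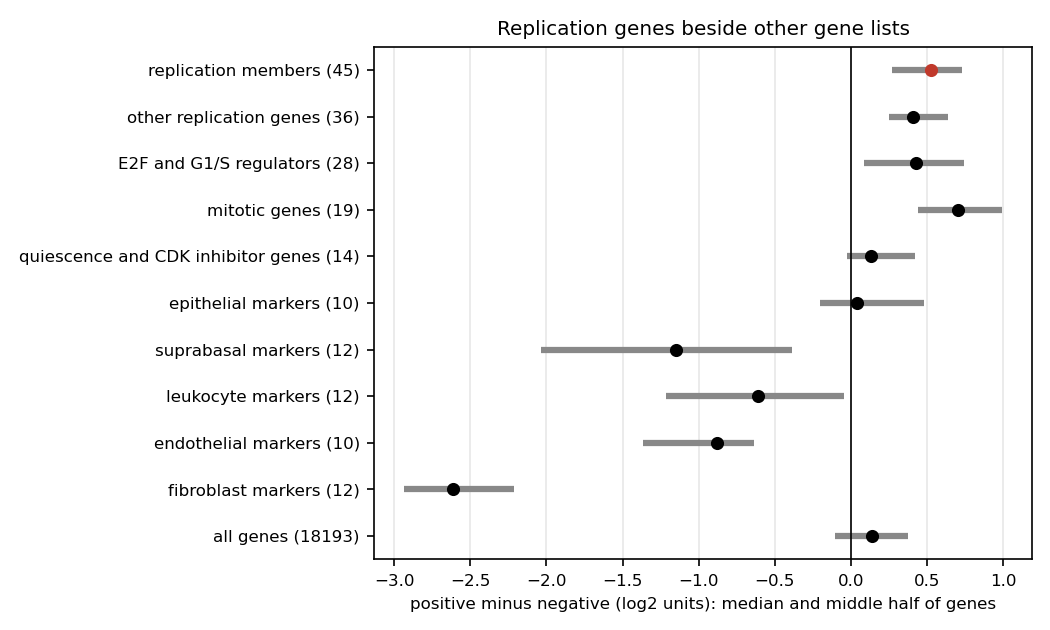
Median (point) and interquartile range (bar) of the log2 difference, positive minus negative, over the genes of each list, with the number of genes in brackets. The replication genes (median 0.53) and the 3 related lists lie to the right of all genes (0.14), and the fibroblast (-2.61) and suprabasal (-1.15) markers to the left.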

How the data were processed

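The authors deposited log2 values of 45101 probe sets for the 4 arrays in 1 table, and the scale was read from their range (2.73 to 14.36). Per the submitters' processing notes R 2.14.0 was used. How background was corrected and arrays were normalized is not given in the sources used here. No detection calls are in the table, and the number of arrays limits the precision.

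Groups came from the sample titles. The 64 control probe sets were left out, and 34945 probe sets with 1 symbol gave 18193 genes, each by its brightest set, while 932 sets with several symbols and 9160 with none were not named. Of the genes, 18032 matched RefSeq gene numbers (GRCm38.p6). The test was limma 3.58.1 in R 4.3.3 (lmFit, eBayes, two-sided, Benjamini-Hochberg over all genes), with 2 residual and 2.92 prior degrees of freedom, and was tested on simulated arrays. Non-overlap counts are descriptions. Alternatives were a replicate block, other scalings, a filter on dim genes, other choices of probe set, other priors and leaving out each array. The members and gene lists were chosen with earlier results of these data known.

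The rule for named genes took, in each role, the members with the smallest p, the one with the largest, and those with a negative difference or with probe sets that point the other way; outside the members it took Sox2, Epcam, Ptprc, Pecam1, Pdgfra, Mki67 and up to 4 genes with the smallest p of each list. Values of the remaining members are given too. A planned search for genes with a like profile was left out, since 4 arrays are too few for a correlation. Both groups share replicate numbers, which no label ties to a tumour. Over all genes, differences between replicates 1 and 2 correlated with r = 0.16 between the groups, and the main test has no block.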

Additional observations from a re-analysis of the deposited data

How the results depend on the processing

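All 45 members kept direction and call under quantile normalization, equal medians, a robust prior, the replicate block alone and the trended prior alone, but not under spike-in scaling, and their counts moved with single arrays. With the replicate number as a block (replicate block), 13 genes were higher and 158 lower over all genes but 0 members passed (lowest adjusted p = 0.144). Added after seeing the data, the replicate block with quantile normalization gave 17 and 166 and 0 members, without the dimmer genes 0 and 0, and with a trended prior 654 and 782, with 7 members higher (Mcm2, Mcm7, Gins1, Rpa1, Rpa3, Rrm1 and Lig1). The trended prior without the block gave 1 higher and 18 lower and 0 members. Spike-in scaling (24 probe sets for added poly-A RNA) moved the median of all genes to 0.93 (0.14 as deposited) and, by the same constant, that of the members to 1.32. It called 12559 genes higher and 158 lower, 42 members higher (43 at an unadjusted p under 0.05, beside 73.5% of all genes), 0 members had both positive arrays below, 26 had a gap of 1 log2 unit (2726 of all genes), and Orc3, Orc4 and Cdc7 turned to 0.47, 0.48 and 0.69. Both positive arrays lay below in 2 members after quantile normalization and 2 with equal medians, and in 0 by the mean of probe sets, where Orc1 turned to -0.034. Taking each of the 102 probe sets separately, 39 were higher at an unadjusted p under 0.05, 71 lay above and 2 below (8.61% and 32.3% of all 34945 probe sets were higher and above), and 1 had a gap of 1 log2 unit, as did 1 gene by the second-brightest probe set (an added setting). By that set Orc1, Cdc7, Dbf4, Pola1, Pola2, Pole2 and Tyms turned to -0.18, 0.046, -0.14, -0.54, -0.14, -0.11 and -0.031. Leaving out 1 array at a time, members higher at an unadjusted p under 0.05 numbered 6 to 17, those above 36 to 42 (46.5% to 55.2% of all genes), those below 1 to 3 and those with a gap of 1 log2 unit 0 to 4 (258 to 532 of all genes), and their median ran from 0.46 to 0.68; Orc1 ran from -0.22 to 0.44, Orc4 from -0.63 to 0.014, Cdc7 from -0.22 to 0.013, Pole from -0.015 to 0.54 and Tyms from -0.15 to 0.54. Fewer samples enter those fits, and the causes of the other changes were not tested.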
